A study of Mus musculus with 11 samples.

Results

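The subcortical maternal complex (SCMC) is a multiprotein assembly that the mouse oocyte stores beneath its surface and passes to the embryo. Its transcripts were followed here in mouse embryos obtained through injection of a round spermatid (ROSI) or of a sperm (ICSI, intracytoplasmic sperm injection). The members were chosen by gene name: Ooep, Nlrp5, Tle6, Khdc3, Padi6, Zbed3, Nlrp4f and Nlrp2. All 8 were found in the deposited table of 49585 genes, and all 8 were among the 21938 genes that reached at least 1 TPM (transcripts per 1e6, a unit corrected for transcript length) in at least 2 libraries and were tested.

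The 11 libraries were of ROSI 2-cell embryos (n = 3), ICSI 2-cell embryos (n = 3), ROSI zygotes (n = 2) and ICSI zygotes (n = 3), all of the C57BL/6 strain and with no transgene or mutation in the labels. In ROSI an immature haploid germ cell, the round spermatid, is injected into the oocyte, and in ICSI a sperm is injected. ROSI embryos were activated in CZB medium without Ca2+ that held 5 mM SrCl2, for 1 to 2 h, and were then grown in KSOM, the medium in which the ICSI embryos were kept throughout. The paternal cell and the activation therefore differ together between ROSI and ICSI and cannot be told apart. The labels give neither embryo numbers nor collection times, and they do not say whether replicates came from separate injections, so the p-values measure only the spread between these libraries.

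The members of this complex are products of maternal effect genes: their RNA is made while the oocyte grows, their proteins persist into cleavage, and mouse embryos whose mothers lack Nlrp5, Ooep, Tle6 or Padi6 fail early in cleavage. The core of the complex is formed by NLRP5, OOEP and TLE6, to which KHDC3 binds, and the proteins are also part of the fibrous cytoplasmic lattices of the mouse egg. Much of the RNA stored by the oocyte is degraded between fertilization and the 2-cell stage, when the embryonic genome becomes active.

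Recovered depths in M reads (M, 1e6) were 20.5 to 23.0 in ROSI 2-cell libraries and 8.49 to 32.9 in ICSI 2-cell libraries, against 30.4 and 86.0 in ROSI zygotes and 70.8 to 83.1 in ICSI zygotes. The stage labels were checked with lists of marker genes. Oocyte markers (8 of 8 detected) summed to 817 to 1009 TPM in ROSI 2-cell embryos and 1372 to 1377 TPM in ICSI 2-cell embryos, against 4352 to 4963 TPM in ROSI zygotes and 5605 to 6559 TPM in ICSI zygotes. Markers of the 2-cell embryo (8 of 8 detected) summed to 402 to 597 TPM in ROSI and 820 to 859 TPM in ICSI 2-cell embryos, against 90.8 to 101 TPM in ROSI and 89.1 to 123 TPM in ICSI zygotes. In the limma test given below, 6 of these 8 were higher and 1, Duxf3, was lower at the 2-cell stage after either method. Over all genes tested, 35.6% were higher and 32.3% lower after ROSI, and 33% and 35% after ICSI. Cumulus markers (12 listed) summed to 46.7 to 54.8 TPM in ROSI and 31.8 to 46.0 TPM in ICSI 2-cell embryos. In zygotes they summed to 11.9 to 15.1 TPM after ROSI and 14.7 to 16.7 TPM after ICSI. Amhr2 alone averaged 43.8 and 33.2 TPM in ROSI and ICSI 2-cell embryos, against 0.0675 and 0.254 TPM in zygotes. Of 5 tested, 2 were higher at the 2-cell stage after either method, with 1 lower after ROSI and 2 after ICSI. Spermatid markers (12 listed) summed to 39.96 to 58.6 TPM in ROSI and 10.7 to 15.5 TPM in ICSI 2-cell embryos, and to 91.9 to 180 TPM in ROSI and 24.8 to 31.1 TPM in ICSI zygotes, with Smcp listed at 0 in both ICSI groups and Tnp2 in ICSI 2-cell embryos.

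The 8 genes lie on 5 mouse chromosomes in the GENCODE M21 annotation of GRCm38, the assembly also known as mm10, and all are protein-coding. Of the core, Ooep lies at chr9:78376109-78378725 on the minus strand, Nlrp5 at chr7:23385889-23441922 on the plus strand and Tle6 at chr10:81590904-81601073 on the minus strand. Khdc3 lies at chr9:73101836-73104438 and Zbed3 at chr13:95323612-95337841, both on the plus strand. Padi6 lies at chr4:140727355-140742643, Nlrp4f at chr13:65177111-65205977 and Nlrp2 at chr7:5298547-5351035, all on the minus strand. Khdc3 shares 38.5% of its exon bases with the gene Gm20509 on the same strand, and the effect of this overlap on its value was not tested. Reads of Nlrp4f may be shared with its Nlrp4 paralogs, so its level is uncertain to that extent.

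The 3′ ends of the member transcripts are shown because stored oocyte RNAs are polyadenylated, kept dormant or degraded through signals there. Each window below is 30 bases of the GENCODE M21 transcript with the longest coding sequence, written 5′ to 3′ as DNA. Capitals mark the polyadenylation signal (AATAAA or ATTAAA) and, where it falls inside the window, a motif of the cytoplasmic polyadenylation element (CPE; TTTTAT or TTTTAAT). Only the transcript strand was searched, and a match is a description of the letters, not evidence of use.
Nlrp5: ggaggatgtagcaagaatgaAATAAAcaca
Tle6: gcagatcccgagttgcgtgtAATAAAacaa
Khdc3: aacacaatttaaagtattctAATAAAaaaa
Padi6: aaacaaattgccatagagccAATAAAgcat
Zbed3: aacactccttttttttTTTTAATAAActtt
Nlrp4f: gctgctgttttgtgTTTTATATTAAAgaat
Nlrp2: gtatcactggtatattggggAATAAAaggg
Among these 7 windows, Nlrp4f alone had ATTAAA as its signal. Its TTTTAT stood directly before that signal (chr13:65177130-65177159, minus strand, GRCm38). In Zbed3 the TTTTAAT overlapped the signal by 3 bases (chr13:95337801-95337830, plus strand, GRCm38), and a further TTTTAT lay downstream. The annotated Ooep transcript held neither AATAAA nor ATTAAA in its last 40 bases, and AATAAA was present in that stretch in 58.5% of the 13975 protein-coding genes tested. A CPE motif was present in the last 100 bases of 2 of the 8 members, Zbed3 and Nlrp4f, and in 18.6% of the tested coding genes whose 3′ UTR had at least 100 bases. The annotated 3′ UTRs were 109 bases in Nlrp5, 130 in Tle6, 189 in Nlrp2, 221 in Padi6, 246 in Khdc3, 582 in Nlrp4f, 1085 in Zbed3 and 1446 in Ooep, against a median of 799 bases over the coding genes tested.

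In zygotes the members spanned more than 3 orders of magnitude in TPM. Zbed3, which encodes a BED-type zinc finger protein that binds Axin, averaged 22022 ± 2778 TPM in ROSI zygotes (SD, n = 2) and 21758 ± 2258 TPM in ICSI zygotes (SD, n = 3). It ranked 1 among the 21338 nuclear protein-coding genes in both zygote groups. Nlrp4f, a mouse NLR family member reported in the complex, followed with 1881 ± 83.2 TPM in ROSI and 1899 ± 126 TPM in ICSI zygotes, ranks 23 and 24. Nlrp5, also called Mater, ranked 74 and 76 in ROSI and ICSI zygotes, and Ooep, also called Floped, ranked 110 and 91. Padi6, a member of the peptidylarginine deiminase family that the lattices require, ranked 108 and 134. Tle6, a relative of the Groucho co-repressors, ranked 458 and 488, and Nlrp2 ranked 3099 and 2881. Khdc3, also called Filia, was the lowest at 8.93 ± 1.25 TPM in ROSI and 7.19 ± 0.51 TPM in ICSI zygotes, ranks 6474 and 7076. Its exon overlap with Gm20509 may lower this counted level and rank, which was not tested. The neighbours Padi6 and Ooep overlapped between libraries in ROSI zygotes, as did Nlrp5 and Ooep in ICSI zygotes, and all other neighbours in that order were separate. Zbed3 so dominated the set that the 8 members together made up 2.47% and 2.82% of all TPM in ROSI zygotes and 2.49% to 2.86% in ICSI zygotes, but 0.418% and 0.464% in ROSI and 0.420% to 0.484% in ICSI zygotes without it.

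**Figure D1:**
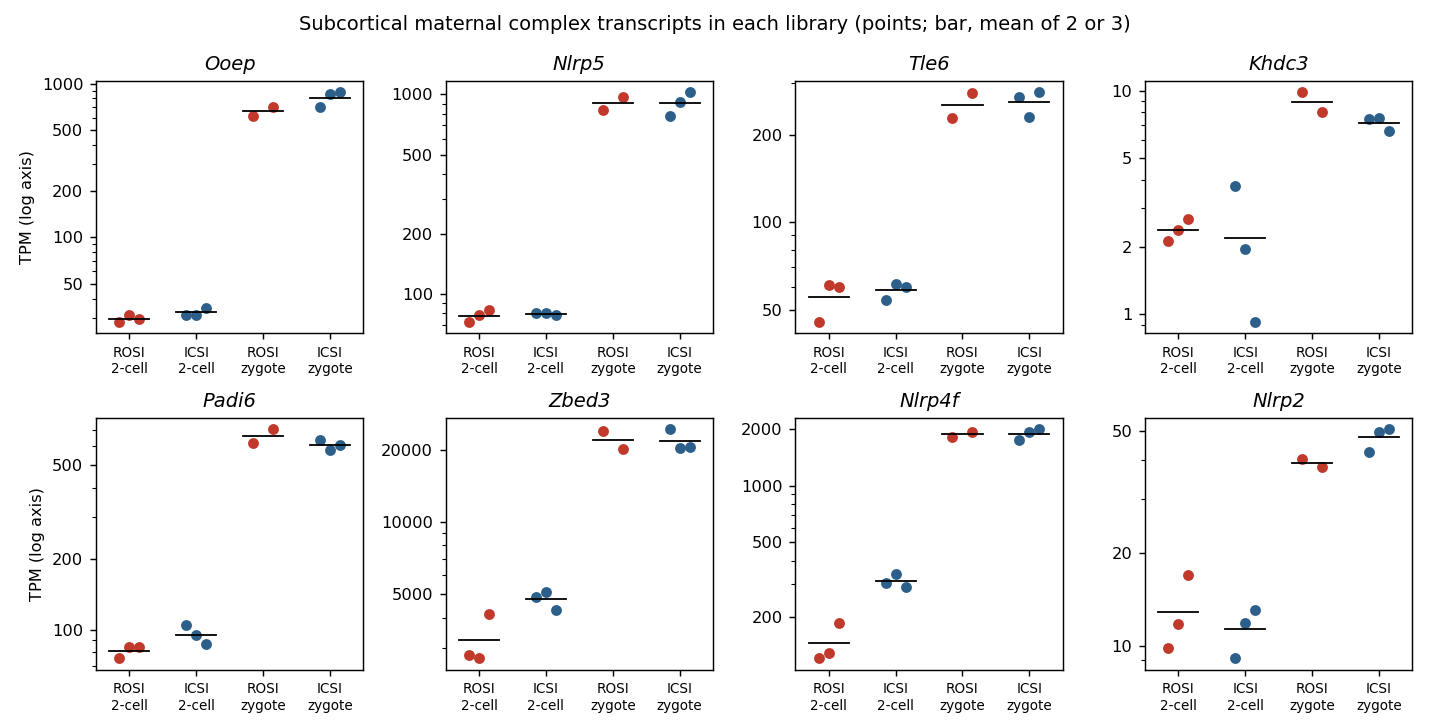
TPM of each member in every library (points, log axis with its own range per gene; bar, group mean) for ROSI 2-cell embryos (n = 3), ICSI 2-cell embryos (n = 3), ROSI zygotes (n = 2) and ICSI zygotes (n = 3). In all 8 panels the 2-cell libraries lie below the zygote libraries of the same method, and Nlrp4f separates ROSI from ICSI at the 2-cell stage but not in zygotes.

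By the 2-cell stage all 8 members had fallen, after ROSI and after ICSI, and no 2-cell library reached the lowest zygote library of its method for any member. The least remained of Ooep, 4.50% of the zygote mean after ROSI and 4.01% after ICSI, and the most of Nlrp2 after ROSI, 32.7%, and of Khdc3 after ICSI, 30.7%. The median log2(TPM + 1) difference of the members between 2-cell embryos and zygotes was -2.90 after ROSI and -2.40 after ICSI, where the median over all genes tested was 0.19 and 0.00. In limma with Benjamini-Hochberg adjustment, 8 of 8 members were lower after ROSI and 8 of 8 after ICSI, against 32.3% and 35% of all genes tested, and 35.9% and 37.3% of all genes were lower with no overlap between the stages. TPM is a share of the library, so loss of a transcript, gain of other RNA and a change in the RNA content of the embryo cannot be told apart. Each library took 1 ng of RNA and embryo numbers are not in the labels, so an amount per embryo or per cell cannot be given. Protein-coding genes held 44.6% to 51.4% of TPM in the 2-cell libraries and 65.9% to 71.6% in the zygote libraries. With TPM rescaled to protein-coding genes alone, a setting chosen after seeing the data, all 8 differences still passed, at -3.97 to -1.14 after ROSI and -4.08 to -1.15 after ICSI.

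Of the core, Ooep fell furthest. Ooep stood at 28.3, 31.1 and 29.5 TPM in ROSI 2-cell embryos, against 615 and 701 TPM in ROSI zygotes. After ICSI, Ooep stood at 31.1, 31.4 and 34.95 TPM in 2-cell embryos, against 701, 855 and 874 TPM in zygotes. The share of the zygote mean that remained was 4.50% ± 0.21 after ROSI and 4.01% ± 0.26 after ICSI (SD over 3 2-cell libraries, with the zygote mean taken as fixed, here and below). The log2 difference was -4.42 (SE 0.12, adjusted p = 8.47e-10) after ROSI and -4.59 (SE 0.10, adjusted p = 2.66e-10) after ICSI, and only 0.169% and 0.077% of the genes tested had a lower value. Among protein-coding genes Ooep ranked 3293 in ROSI and 3095 in ICSI 2-cell embryos.

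Nlrp5 followed, with 72.9, 78.3 and 83.1 TPM in ROSI 2-cell embryos, against 841 and 971 TPM in ROSI zygotes. In ICSI embryos its values were 80.4, 80.3 and 78.7 TPM at the 2-cell stage, against 778, 914 and 1023 TPM in zygotes. The ROSI and ICSI values overlapped at both stages, and 8.62% ± 0.56 and 8.82% ± 0.10 remained after ROSI and ICSI. The log2 difference between stages was -3.52 (SE 0.12, adjusted p = 2.65e-09) after ROSI and -3.48 (SE 0.11, adjusted p = 1.01e-09) after ICSI. Tle6, whose protein is bound by both NLRP5 and OOEP, was retained more. Tle6 had 45.5, 61.0 and 59.7 TPM in ROSI 2-cell embryos, against 228 and 277 TPM in ROSI zygotes. After ICSI it had 54.0, 61.1 and 59.7 TPM in 2-cell embryos, against 270.4, 229.7 and 279 TPM in zygotes. Thus 21.9% ± 3.41 remained after ROSI and 22.4% ± 1.45 after ICSI, with log2 differences of -2.18 (SE 0.15, adjusted p = 2.81e-07) and -2.14 (SE 0.13, adjusted p = 1.2e-07). The values of ROSI and ICSI overlapped at both stages for Tle6 too, and the 3 core transcripts differed among themselves in the share that remained.

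Khdc3, whose KH-domain protein associates with the core, had the lowest TPM of the members in every group. It had 2.13, 2.38 and 2.66 TPM in ROSI 2-cell embryos, against 9.81 and 8.04 TPM in ROSI zygotes. In ICSI embryos it had 3.74, 1.95 and 0.928 TPM at the 2-cell stage, against 7.47, 7.51 and 6.61 TPM in zygotes. These 2-cell values rest on 45 to 48 reads per ROSI library and 26 to 48 per ICSI library, and the spread was wider among the ICSI libraries. The log2 difference was -1.55 (SE 0.30, adjusted p = 0.000813) after ROSI and -1.45 (SE 0.27, adjusted p = 0.000575) after ICSI, and 26.8% ± 3.01 and 30.7% ± 19.7 remained.

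Padi6 had 75.5, 84.1 and 84.1 TPM in ROSI 2-cell embryos, against 619 and 707 TPM in ROSI zygotes. After ICSI, Padi6 had 104, 94.9 and 86.4 TPM in 2-cell embryos, against 638, 578 and 604 TPM in zygotes. All ROSI 2-cell libraries were below all ICSI 2-cell libraries, whereas the zygotes of both methods overlapped. Of the zygote mean, 12.2% ± 0.75 remained after ROSI and 15.7% ± 1.47 after ICSI, and the log2 difference between stages was -3.01 (SE 0.11, adjusted p = 3.21e-09) and -2.66 (SE 0.10, adjusted p = 2.40e-09).

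Zbed3 remained abundant despite its fall. Zbed3 had 2796, 2712 and 4164 TPM in ROSI 2-cell embryos, against 23987 and 20058 TPM in ROSI zygotes. In ICSI embryos Zbed3 had 4885, 5117 and 4321 TPM at the 2-cell stage, against 24363, 20345 and 20568 TPM in zygotes. ROSI 2-cell replicate 3 was higher than its 2 companions and just below the lowest ICSI 2-cell library. The log2 difference between stages was -2.79 (SE 0.19, adjusted p = 2.67e-07) after ROSI and -2.19 (SE 0.17, adjusted p = 6.85e-07) after ICSI, with 14.6% ± 3.70 and 21.9% ± 1.88 remaining. Even so, Zbed3 ranked 2 among nuclear protein-coding genes in both 2-cell groups.

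Of the NLR members outside the core, Nlrp4f and Nlrp2, the stage difference varied more between the methods for Nlrp4f. The ROSI minus the ICSI log2 difference between stages was -1.11 for Nlrp4f and 0.41 for Nlrp2. Neither passed in limma, at adjusted p of 0.0884 and 0.5145. Nlrp4f had 120.5, 129 and 186 TPM in ROSI 2-cell embryos, against 1822 and 1939.8 TPM in ROSI zygotes. In ICSI embryos Nlrp4f had 302, 340.5 and 289.7 TPM at the 2-cell stage, against 1759.6, 1930.4 and 2006 TPM in zygotes. All ROSI 2-cell libraries were well below all ICSI 2-cell libraries, while the zygotes overlapped. The log2 difference between stages was -3.71 (SE 0.17, adjusted p = 1.33e-08) after ROSI and -2.61 (SE 0.15, adjusted p = 5.84e-08) after ICSI, and 7.71% ± 1.89 and 16.4% ± 1.40 remained. Its rank among protein-coding genes was 533 in ROSI and 167 in ICSI 2-cell embryos.

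Nlrp2, whose loss in mothers impairs early mouse embryos, had 9.83, 11.8 and 16.9 TPM in ROSI 2-cell embryos, against 40.5 and 38.1 TPM in ROSI zygotes. After ICSI, Nlrp2 had 9.11, 11.9 and 13.0 TPM in 2-cell embryos, against 42.7, 49.4 and 50.5 TPM in zygotes. ROSI 2-cell replicate 3 was again the highest of its group, and the 2-cell groups overlapped. The log2 difference was -1.57 (SE 0.21, adjusted p = 4.69e-05) after ROSI and -1.99 (SE 0.18, adjusted p = 2.80e-06) after ICSI, with 32.7% ± 9.35 and 23.8% ± 4.23 remaining.

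**Figure D2:**
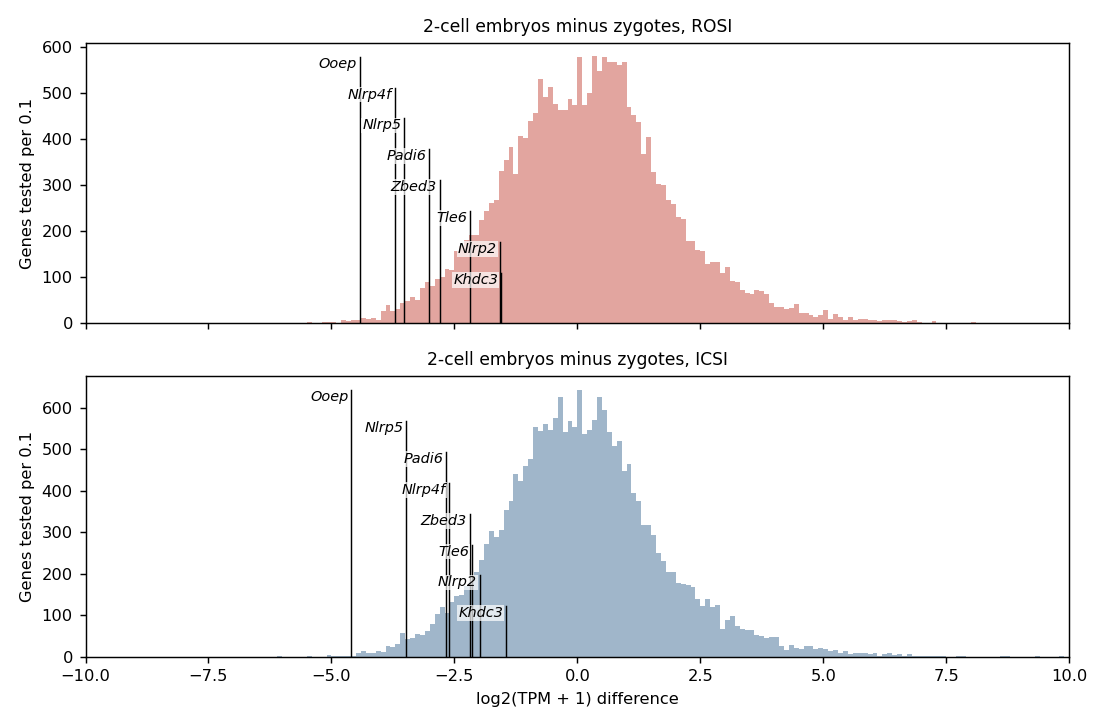
Histograms of the log2(TPM + 1) difference between 2-cell embryos and zygotes over the 21938 genes tested, after ROSI (top) and after ICSI (bottom), in bins of 0.1, with a line at each member. All 8 lines lie left of 0, Ooep at -4.42 after ROSI and -4.59 after ICSI, and Nlrp4f stands further left after ROSI (-3.71) than after ICSI (-2.61).

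Because the members started from different levels and fell by different extents, their order changed. In 2-cell embryos of both methods the order was Zbed3, Nlrp4f, Padi6, Nlrp5, Tle6, Ooep, Nlrp2 and Khdc3. Padi6 and Nlrp5 overlapped between libraries in ROSI 2-cell embryos, and all other neighbours were separate. Ooep, above Tle6 in both zygote groups, was below it in both 2-cell groups. Together the 8 members held 0.315%, 0.311% and 0.463% of TPM in ROSI 2-cell embryos and 0.547%, 0.574% and 0.488% in ICSI 2-cell embryos. Without Zbed3 these shares were 0.0355% to 0.0462% in ROSI and 0.0563% to 0.0622% in ICSI 2-cell embryos, with no overlap between the groups. Without Nlrp4f as well they overlapped: the other 6 members summed to 234, 269 and 276 TPM in ROSI and 283, 281 and 274 TPM in ICSI 2-cell embryos.

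**Figure D3:**
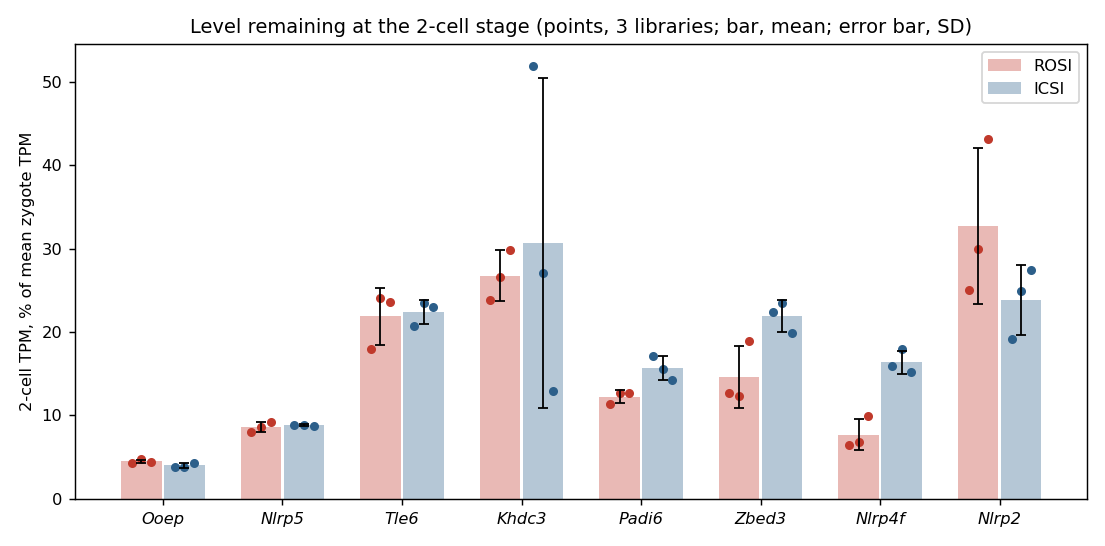
Percent of the zygote mean of the same method that remained in each 2-cell library (points) with the mean (bar) and SD (error bar) of 3 libraries, ROSI left of ICSI for each member. Ooep retained the least (4.50% after ROSI and 4.01% after ICSI), and the ROSI points of Nlrp4f, mean 7.71%, lie below its ICSI points, mean 16.4%.

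In zygotes no member passed the test of ROSI against ICSI. In limma 0 of 8 were called, against 0.146% of all genes tested, and 1 of 8 had an unadjusted p under 0.05, as did 1392 of the 21938 genes tested. That member was Ooep, which averaged 658 ± 61.2 TPM in ROSI and 810.1 ± 94.7 TPM in ICSI zygotes, a log2 difference of -0.30 (SE 0.12, adjusted p = 0.680). The 95% intervals of the log2 difference were -0.26 to 0.28 for Nlrp5, -0.37 to 0.29 for Tle6, -0.11 to 0.36 for Padi6, -0.40 to 0.44 for Zbed3 and -0.38 to 0.35 for Nlrp4f. Those of the low members were wider, -0.39 to 0.93 for Khdc3 and -0.72 to 0.19 for Nlrp2. Libraries of the methods did not overlap for Khdc3, higher in ROSI, and for Nlrp2, lower in ROSI, 2 of 8 where 26.4% of all genes did not overlap. The zygote libraries also differed in their share of small nuclear and nucleolar RNA, at 0.611% for the first ROSI library and 0.572% for the first ICSI library, while the other three held 1.64% to 2.58%. Within the poor pair and within the rich libraries, a split chosen after seeing the data, the log2 difference of Nlrp2 was -0.07 and -0.38, that of Khdc3 was 0.35 and 0.17, and that of Ooep was -0.19 and -0.30. Tle6 was at -0.24 and 0.13, Padi6 at -0.04 and 0.26, Nlrp5 at 0.11 and 0.0059, Nlrp4f at 0.0503 and -0.0207, and Zbed3 at -0.0224 and -0.0284. The poor pair is 1 library of each method, and the rich libraries include only 1 of ROSI. Neither set of values therefore has a replicate check for ROSI.

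At the 2-cell stage Nlrp4f was lower in ROSI embryos, at 145 ± 35.6 TPM, against 311 ± 26.5 TPM in ICSI embryos (SD, n = 3 each), or 46.7% of the ICSI mean. Its log2(TPM + 1) difference was -1.12 (SE 0.15, 95% interval -1.45 to -0.79, adjusted p = 0.00425 in limma), lower in 3 of 3 ROSI libraries, and 1.03% of the genes tested had a lower value. Nlrp4f was the only member past the threshold, so 1 of 8 was called lower and 0 of 8 higher, against 4.58% and 4.93% of all genes. The count alone is therefore no result about the complex. The call held with each library left out in turn, at an adjusted p of at most 0.0183. When the 2 groups were fitted without the zygotes the difference was unchanged at -1.12 but its adjusted p was 0.0581.

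Zbed3 came next, at 3224 ± 815 TPM in ROSI and 4774 ± 409 TPM in ICSI 2-cell embryos, or 67.5% of the ICSI mean. Its log2 difference of -0.59 (SE 0.17, 95% interval -0.97 to -0.21) had an adjusted p of 0.0549 and was not called. Without ROSI 2-cell replicate 3 it was -0.79 with an adjusted p of 0.00814, and with quantile scaling it was -0.22 with an adjusted p of 0.650. Padi6 was at 85.3% of the ICSI mean, a log2 difference of -0.22 (SE 0.10, adjusted p = 0.168). These 3 members had libraries that did not overlap between the methods, all lower in ROSI, where 11.8% of all genes were lower without overlap.

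The other members gave no call, with 95% intervals of the log2 difference of -0.36 to 0.10 for Ooep, -0.27 to 0.21 for Nlrp5, -0.38 to 0.21 for Tle6 and -0.42 to 0.76 for Khdc3. Nlrp2 was at 12.9 ± 3.68 TPM in ROSI and 11.3 ± 2.01 TPM in ICSI 2-cell embryos, a log2 difference of 0.15 (SE 0.18, adjusted p = 0.651). The 3 core transcripts were thus at 91.3%, 97.8% and 95.1% of the ICSI mean for Ooep, Nlrp5 and Tle6.

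Other values also varied among the 2-cell libraries, and their part in the 2-cell difference of Nlrp4f and Zbed3 was not tested. In limma 5 of 8 oocyte markers and 5 of 8 2-cell markers were called lower in ROSI than in ICSI 2-cell embryos. In either list 0 were called higher. Over all genes tested, 4.58% were called lower and 4.93% higher. The summed levels are given above, and no gene of either list was at 0. Gm23935, a gene that took a large share of every library, held 23.7%, 17.7% and 12.7% of TPM in ROSI 2-cell replicates 1, 2 and 3. It held 16.2% to 17.6% in ICSI 2-cell libraries, so the ranges of the methods overlapped. Replicate 3, the ROSI library with the lowest share, was the highest of its group for 6 of 8 members, all but Ooep and Tle6. For Padi6 it was nearly tied with replicate 2, at 84.13 and 84.05 TPM. The share of all genes that were highest in replicate 3 was not computed, so the count is no result about the members. With TPM rescaled to protein-coding genes alone, which leaves Gm23935 out, Nlrp4f was at -1.08 (adjusted p = 0.000202) and Zbed3 at -0.55 (adjusted p = 0.0133).

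**Figure D4:**
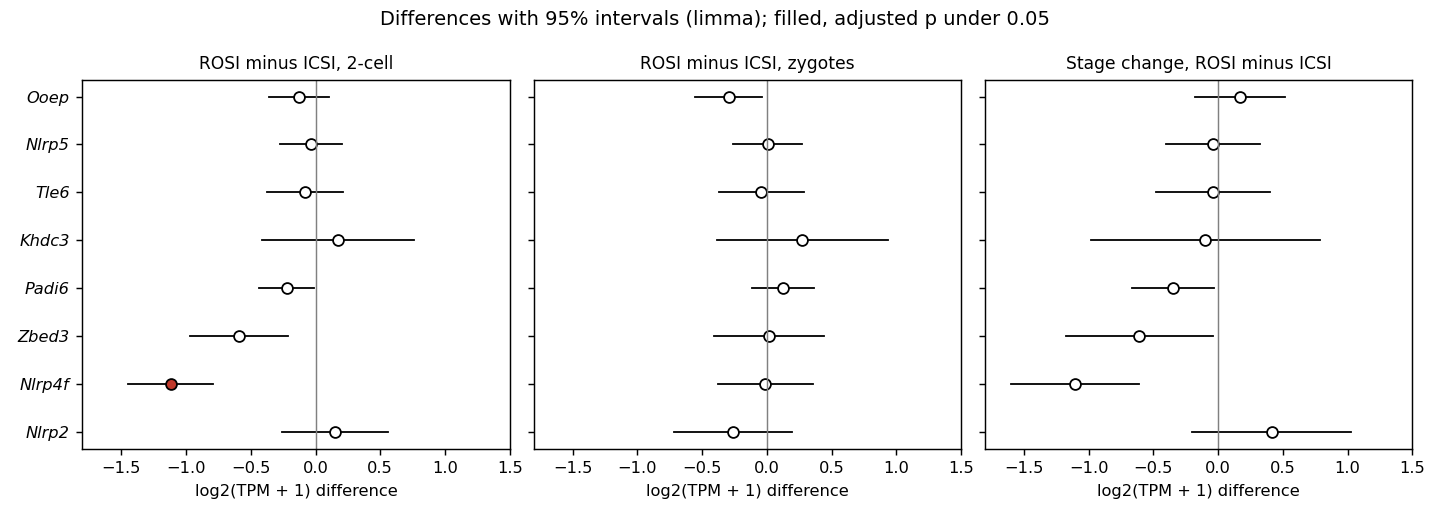
Log2(TPM + 1) difference of ROSI minus ICSI for each member in 2-cell embryos (left) and in zygotes (middle), and of the ROSI minus the ICSI stage change (right), with 95% intervals from limma and a filled point where the adjusted p is under 0.05. In 2-cell embryos the interval of Nlrp4f (-1.45 to -0.79) lies wholly below 0, and in zygotes its interval (-0.38 to 0.35) spans 0.

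Whether the extent of the stage difference itself differed between the methods was tested as the ROSI change minus the ICSI change. None of the 8 members passed in limma, against 0.0182% of all genes, that is 4 of 21938; 3 of 8 members and 3303 of all genes had an unadjusted p under 0.05. Nlrp4f had the largest value, -1.11 (SE 0.22, 95% interval -1.60 to -0.61), with an unadjusted p of 0.000499 and an adjusted p of 0.0884. Without ROSI 2-cell replicate 3 it was -1.30 with an adjusted p of 0.0218, and with protein-coding genes alone -1.16 with an adjusted p of 0.0121. Zbed3 stood at -0.61 (SE 0.26, adjusted p = 0.301) and Padi6 at -0.35 (SE 0.14, adjusted p = 0.294). The median of the members was -0.07, beside 0.10 over all genes tested.

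Of the members with a CPE motif in their last 100 bases, Nlrp4f was called lower in ROSI than in ICSI 2-cell embryos and Zbed3 was not called. The motif was compared with these values after they were seen. Over all tested coding genes with a 3′ UTR of at least 100 bases, 7.04% of the 2359 with such a motif and 5.42% of the 10314 without it were called lower in ROSI than in ICSI 2-cell embryos, and the median log2 difference was 0.03 and 0.05. Between 2-cell embryos and zygotes, 45.3% with and 41.7% without the motif were called lower after ROSI, and 48.9% and 44.5% after ICSI.

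Upstream sequences of members are shown because the mouse members are transcribed together in the growing oocyte, where the basic helix-loop-helix factor FIGLA binds E-boxes (CANNTG). Each is the 150 bases before the RefSeq start (GRCm38.p6), 5′ to 3′ on the gene's strand, for a gene whose RefSeq and GENCODE starts coincide, with E-boxes in capitals. The order is Nlrp5 (chr7:23385739-23385888, plus strand), Padi6 (chr4:140742644-140742793, minus strand) and Nlrp2 (chr7:5351036-5351185, minus strand).
Nlrp5: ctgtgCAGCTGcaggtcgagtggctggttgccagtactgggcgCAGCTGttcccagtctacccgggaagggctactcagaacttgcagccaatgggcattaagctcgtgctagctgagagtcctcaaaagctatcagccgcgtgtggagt
Padi6: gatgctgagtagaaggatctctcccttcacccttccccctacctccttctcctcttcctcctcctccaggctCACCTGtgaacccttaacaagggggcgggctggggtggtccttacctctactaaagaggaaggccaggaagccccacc
Nlrp2: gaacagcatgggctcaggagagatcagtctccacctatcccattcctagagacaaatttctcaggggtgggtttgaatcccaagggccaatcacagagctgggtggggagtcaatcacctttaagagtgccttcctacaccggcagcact
Nlrp5 carried 2 E-boxes with the letters CAGCTG, Padi6 carried a CACCTG, and Nlrp2 carried none. The E-box reads as CANNTG on both strands, so 1 search covers both. Over the 250 bases before the RefSeq start, 7 of 8 members had at least 1 E-box, all but Nlrp2, against 66.2% of 32851 RefSeq promoters. For so short and frequent a motif this is a description of the windows.

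Ovarian regulators of maternal genes, which act while the oocyte grows, fell with the complex in part. Of 7 listed, 5 were lower and 2 higher in 2-cell embryos than in zygotes after either method. For comparison with this list and those below, 32.3% of all genes tested were lower and 35.6% higher after ROSI, and 35% and 33% after ICSI. Between ROSI and ICSI 2-cell embryos, 4.58% of all genes were lower in ROSI and 4.93% higher. Nobox, a homeobox factor of the oocyte, differed by -4.28 after ROSI and -3.69 after ICSI on the log2 scale, and Figla by -3.31 and -3.55. Taf4b, a subunit of the TFIID complex, was higher by 2.37 after ROSI and 2.35 after ICSI. Between ROSI and ICSI 2-cell embryos only Nobox of this list passed, averaging 26.4 TPM in ROSI and 43.9 TPM in ICSI, a log2 difference of -0.72 (SE 0.15, adjusted p = 0.0193).

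Reported partners of the complex and of the lattices were tested for 11 of 12 listed genes. Of these, 8 were lower and 2 higher at the 2-cell stage after either method, and the list median was -2.18 after ROSI and -2.04 after ICSI. Skp1a, an adaptor of SCF ubiquitin ligases, differed by -3.78 after ROSI and -3.59 after ICSI. Dnmt1, the maintenance DNA methyltransferase, differed by -3.33 and -3.50, and Ube2d1, a ubiquitin-conjugating enzyme, by -3.28 and -2.75. Axin1, a scaffold of the Wnt pathway, was higher by 0.50 after ROSI and 0.58 after ICSI, and Ube2d2a by 0.30 and 0.49. Between ROSI and ICSI 2-cell embryos 0 of 11 passed in either direction, with a median of -0.16.

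Other maternal effect genes were tested for 27 of 28 listed symbols, where Stella is another name of Dppa3. Of these, 17 were lower at the 2-cell stage after either method, while 6 were higher after ROSI and 7 after ICSI. Their median log2 difference of -0.69 after ROSI and -0.62 after ICSI was nearer to 0 than that of the complex. Zar1l, which binds maternal mRNA, differed by -4.07 after ROSI and -3.78 after ICSI, and H1foo, the oocyte linker histone, by -3.30 and -3.84. Trim28, a co-repressor that protects imprints, was higher by 2.28 after ROSI and 1.89 after ICSI. Between ROSI and ICSI 2-cell embryos 2 were lower, Tet3 (-0.61, adjusted p = 0.0421) and Zfp57 (-0.58, adjusted p = 0.00926), and 2 higher, Zfp36l2 (1.20, adjusted p = 0.00688) and Ago2 (0.44, adjusted p = 0.0394).

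Genes of maternal mRNA decay were tested for 14 of 16 listed symbols. The list holds Tut4 and Tut7 also under their older symbols, Zcchc11 and Zcchc6. At the 2-cell stage 7 were lower and 6 higher after ROSI, and 8 lower and 5 higher after ICSI. Pabpn1l, a poly(A)-binding protein that works with the decay adaptor BTG4, differed by -5.48 after ROSI and -5.06 after ICSI. Between ROSI and ICSI 2-cell embryos Dcp1a, a decapping factor, was lower (-0.97, adjusted p = 0.0135), as was Cnot7, a deadenylase (-0.46, adjusted p = 0.0228). Zcchc11, a uridylyltransferase that marks short-tailed mRNA, was higher (0.64, adjusted p = 0.0397), as were Zfp36l2 and Ago2 above.

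Relatives of the members by family were tested for 25 of 32 listed, and 12 were lower and 10 higher at the 2-cell stage after either method. Over all genes tested, 32.3% were lower and 35.6% higher after ROSI, and 35% were lower and 33% higher after ICSI. Nlrp9b differed by -4.38 after ROSI and -3.96 after ICSI, and Nlrp4a by -3.65 and -3.10. Nlrp12 was higher by 3.82 after ROSI and 3.23 after ICSI, and the Groucho gene Tle3 by 3.10 and 3.01, opposite in sign to its relative Tle6. Between ROSI and ICSI 2-cell embryos 6 were lower and 2 higher, with a list median of -0.06. Nlrp4g (-0.77, adjusted p = 0.0115), Nlrp4a (-0.70, adjusted p = 0.0116) and Nlrp4e (-0.68, adjusted p = 0.0149) had the largest negative values, all smaller than that of Nlrp4f. Dppa5a (1.03, adjusted p = 0.0118) and Nlrp12 (0.64, adjusted p = 0.0212) were higher in ROSI. In zygotes no gene of these 5 lists passed between ROSI and ICSI, and none passed in the difference of stage changes.

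The profiles most like those of the members were sought among 4918 named genes with at least 20 TPM on average, by the root mean square distance of centred log2(TPM + 1) values over the 11 libraries. Nearest to the mean profile of the 8 members were Cep41 (distance 0.0744), Nsf (0.0806) and Sytl4 (0.0810). Dnmt1 was nearest to Nlrp5 (0.101), Speer5-ps1 to Ooep (0.122), Stxbp6 to Tle6 (0.105) and Phf7 to Khdc3 (0.259). Trim27 was nearest to Padi6 (0.0805), Lef1 to Zbed3 (0.0852), Olfr976 to Nlrp4f (0.150) and Rnf34 to Nlrp2 (0.123). Within the complex the closest profiles were those of Tle6 and Nlrp2 (0.276) and of Padi6 and Zbed3 (0.280), and the farthest those of Ooep and Khdc3 (1.58). Every member was thus nearer to at least 1 gene outside the complex than to any other member, among many more candidates outside it.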

How the data were processed

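RNA was sequenced from ROSI and ICSI mouse embryos, 11 libraries in 4 groups. The authors deposited TPM for every gene, with a column for each library. The submitters' processing notes name fastp, Bowtie2, STAR 2.7.4a, featureCounts and mm10, and the annotation and strand setting are not given in the sources used here. The test took genes that reached 1 TPM in 2 or more libraries, on log2(TPM + 1) with a pseudocount of 1, which understates changes of low genes. One limma 3.58.1 model (R 4.3.3, eBayes with trend) held the 4 group means, and each of 5 contrasts was adjusted by Benjamini-Hochberg over all genes at 0.05. The model was tested on simulated data. Reads were recovered from TPM times exon length: between 81.6% and 88.1% of a library's values were whole to within 0.01, and chance gives 2%. In 2-cell libraries the reads of Nlrp4f lay 0.12 to 0.48 from whole and those of Zbed3 0.11 to 0.46. The largest distance among the remaining members there was 0.0246, in Nlrp5, and the cause was not tested. No count test was run on recovered reads. Of the genes in the table, 47176 matched 1 annotated gene. Annotation, transcripts and promoters came from GENCODE M21 and RefSeq, read with python 3.11.15 and pandas 2.3.3. The members, lists and naming rule (the 8 members, up to 3 genes per list and direction past the threshold, and the 3 nearest profiles) were chosen with earlier results of these data known. Pseudocount, filter, scaling, weights, replicate block, groups fitted alone and each library left out were the alternatives.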

Additional observations from a re-analysis of the deposited data

How the results depend on the processing

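All 16 calls between 2-cell embryos and zygotes held in 22 of 22 settings, and of 872 member values recomputed, 822 kept their direction and side of the threshold. In the 2-cell comparison of ROSI with ICSI the 1 call became 2 with a 5 TPM filter, median-ratio scaling or array weights. It also became 2 with protein-coding genes alone, a setting chosen after seeing the data. The count ranged from 1 to 2 with a 2-cell or ICSI zygote library left out, and was 2 without ROSI 2-cell replicate 3. It was 0 with the groups alone. Over all genes, the 5 TPM filter called 2121 of 12910, median-ratio scaling 3412 of 21938 and array weights 1819 of 21938. Protein-coding genes alone called 3561 of 15298, the fit without ROSI 2-cell replicate 3 called 2197 of 21385, and the groups alone 85 of 21938. The member counts alone are therefore no result about the complex. In the difference of changes the count of 0 became 1, Nlrp4f, with median-ratio or quantile scaling, array weights or protein-coding genes alone. It ranged from 0 to 1 with a 2-cell or ICSI zygote library left out. Over all genes, median-ratio scaling called 303, quantile scaling 197 and array weights 220 of 21938, and protein-coding genes alone 627 of 15298. Uncalled values near 0 changed sign, and the cause was not tested. In zygotes these were Tle6 at 0.0404 and Nlrp4f at 0.07 with median-ratio scaling, Tle6 at 0.0418, Nlrp4f at 0.0546 and Zbed3 at -0.16 with quantile scaling, Nlrp5 at -0.0605 with array weights, and Tle6 at 0.0541 and Nlrp4f at 0.0837 with protein-coding genes alone. With a library left out the zygote values ran from -0.18 to 0.10 for Tle6, -0.0658 to 0.0331 for Nlrp4f, -0.10 to 0.11 for Nlrp5 and -0.11 to 0.15 for Zbed3. At the 2-cell stage Nlrp5 was at 0.0152 with quantile scaling and 0.0069 with protein-coding genes alone; with a library left out it ran from -0.0783 to 0.0152, Tle6 from -0.16 to 0.0517, Nlrp2 from -0.0538 to 0.31 and Khdc3 from -0.14 to 0.50. In the difference of changes Khdc3 was at 0.0018 with a pseudocount of 0.1 and 0.12 with array weights, Nlrp5 at 0.0414 with array weights and Ooep at -0.018 with median-ratio scaling, and leaving out a library gave -0.42 to 0.23 for Khdc3, -0.14 to 0.0653 for Nlrp5 and -0.18 to 0.10 for Tle6. Same-numbered replicates were not paired by the labels: their deviations correlated at 0.02, 0.00 and -0.01 in 2-cell embryos and at 0.33 and 0.22 in zygotes. Differently numbered zygote libraries correlated at -0.33 to 0.21, with 0.21 for ROSI replicate 2 and ICSI replicate 3. With only 2 ROSI zygote libraries their deviations mirror each other, so the zygote values are not independent. With the replicate block no member count changed, Nlrp4f at the 2-cell stage had an adjusted p of 0.00893 and Zbed3 of 0.0677, and signs changed for Tle6 (0.0026) and Nlrp4f (0.0489) in zygotes and Khdc3 (0.0055) in the difference. Over all genes the 2-cell count was 2087, between 85 and 3561 across settings, the zygote count 32, between 0 and 311, and the difference count 4, between 0 and 627. Protein-coding genes alone moved the median stage difference of all genes to 0.32 after ROSI and 0.20 after ICSI, beside 0.19 and 0.00 in the reported fit. Leaving out a ROSI zygote leaves 1 library there, which is assumed to vary like the other groups. Depth limits Khdc3 most, and intervals cover only the spread between these libraries.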
